A study of Arabidopsis thaliana with 8 samples.

Results

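The pericentromere of chromosome 3 of Arabidopsis thaliana, the thale cress, was examined here from 10 to 17 Mb, the stretch on both sides of the centromere. Its members were the windows of 1000 bp, spaced every 500 bp, that lay wholly within these bounds and whose mean relative input depth was under 10. That depth was each input count divided by the median count of its library over all windows, averaged over the 4 input libraries. The rule gave 13582 of the 238296 windows on chromosomes 1 to 5. It left out 417 windows of the span, of which 197 lay between 13 and 14 Mb and 104 between 14 and 15 Mb. The last windows inside the limit had relative input depths of 9.98, 9.99 and 9.99, and the first outside it had 10.005, 10.02 and 10.03.

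Pericentromeres of Arabidopsis are heterochromatin, dense in transposons and their remnants and poor in active genes, and their DNA carries methylated cytosines in CG and other contexts. Proteins of the methyl-CpG-binding domain family, to which MBD7 belongs, bind methylated CG sites, and MBD7 is known in this plant as a partner of factors that act against DNA methylation and silencing. In chromatin immunoprecipitation (ChIP), fragments bound by a protein are collected with an antibody and sequenced, and input chromatin taken before precipitation shows how often each stretch is read without any selection.

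The study had 4 groups of 2 libraries, all from seedlings 14 days old and grown at 23 °C, so that values average over all their cell types. WT plants, whose sample names give a 35S-SUC2 transgene and which carry no Myc tag, gave input and ChIP libraries, and their precipitation with a Myc antibody is the background control. The MBD7 line, sample name MBD7-5, carries a genomic MBD7 construct with 4 Myc tags under the promoter of MBD7 itself, and gave input and ChIP libraries too. The labels name an Invitrogen Myc antibody for WT ChIP and a Millipore one for MBD7 ChIP, so line and antibody cannot be told apart, and the protocol mentions just the Invitrogen one. Nothing in the labels says that the replicates were grown separately. The p-values therefore reflect only how libraries of a group differ, which may be technical.

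Total counts per library over all windows were 31459707 and 24679699 in WT input, 7450486 and 4971029 in WT ChIP, 26739116 and 19224696 in MBD7 input, and 25846940 and 23761267 in MBD7 ChIP. Over windows that do not overlap and lie under the depth limit, totals were 9002427 and 7531285 in WT input and 826408 and 592683 in WT ChIP. They were 8955667 and 6272220 in MBD7 input, and 3303787 and 3291653 in MBD7 ChIP. The all-window totals count neighbours that share 500 bp. The depth limit took a larger part of the counts from the ChIP than from the input libraries. The median count of a member window was 64 and 54 in WT input, 5 and 4 in WT ChIP, 63 and 44 in MBD7 input, and 22 and 22 in MBD7 ChIP. WT ChIP was thus the thinnest group, with 742 and 1132 member windows at 0 counts. The counts of the WT inputs differed in the region by no more than counting noise, with a chi-square of 1.02 per degree of freedom (p = 0.141). In the region the same ratio was 1.09 for MBD7 input, 1.46 for WT ChIP and 1.40 for MBD7 ChIP. The MBD7 inputs thus differed there by slightly more than counting noise (chi-square p = 3.2e-07). Over all windows under the depth limit the inputs of each line agreed within counting noise, with chi-squares per degree of freedom of 0.944 for WT input and 0.994 for MBD7 input, and with the deeper windows included the ratios were 1.50 and 1.13. The inputs of a line may therefore not be separate samples. They entered the fits as 2 libraries, and fits with each line's inputs counted as 1 library were run beside them.

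The region was transposon territory at its core and genic at its edges. Of the member windows, 38.7% overlapped a pseudogene, the class under which the annotation holds transposable element genes, 30.4% a protein-coding gene, 2.51% an RNA gene, and 28.3% no gene. In chromosome arms 80.6% of windows overlapped a protein-coding gene and 2.48% a pseudogene. Across the 7 segments of 1 Mb, from 10 Mb on, the share of pseudogene windows was 8.44%, 32.2%, 62.6%, 57.4%, 62.4%, 41.8% and 9.62%.

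The first question was how much of each library fell in the region. The mean count per member window divided by that of arm windows was 1.59 in both WT inputs and 1.42 in both MBD7 inputs. It was 3.03 and 2.65 in WT ChIP, and 4.63 and 3.98 in MBD7 ChIP. The 4 groups did not overlap, and the order was MBD7 ChIP, WT ChIP, WT input, MBD7 input. As a share of all counts under the depth limit, from windows that do not overlap, the region held 7.71% and 7.72% in WT input, 10.7% and 10.1% in WT ChIP, 7.23% and 7.21% in MBD7 input, and 13.1% and 12.3% in MBD7 ChIP. With 2 against 2 libraries the exact two-sided permutation test cannot go below p = 0.333, and each of these pairs of groups gave that value.

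**Figure D1:**
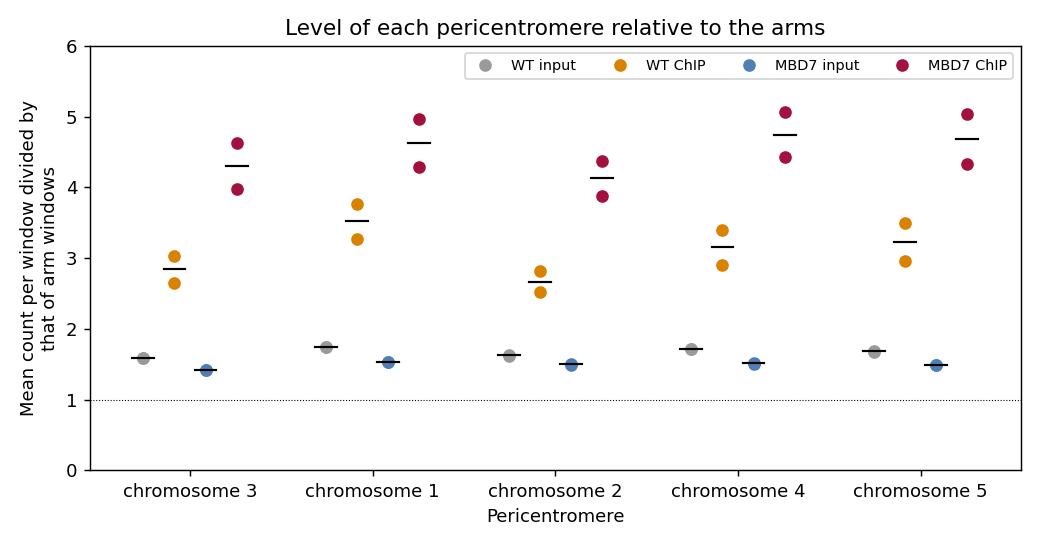
Mean count per window of each pericentromere divided by that of arm windows (y axis, dimensionless) for the 5 chromosomes (x axis), 1 point per library with a bar at the mean of the group. On chromosome 3 the MBD7 ChIP libraries lie at 4.63 and 3.98 and the WT ChIP libraries at 3.03 and 2.65, above all inputs.

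Set against the other 4 pericentromeres, the region was close to their level in all groups. Its mean count per window divided by theirs was 0.936 and 0.937 in WT input, 0.893 and 0.902 in WT ChIP, 0.947 and 0.940 in MBD7 input, and 0.951 and 0.940 in MBD7 ChIP. The MBD7 ChIP and MBD7 input libraries overlapped in this ratio (exact permutation p = 1). WT ChIP was lower than each other group without overlap. The ratio of its mean to that of WT input was 0.959, with the exact permutation p at its lowest possible value of 0.333.

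In the MBD7 line, precipitation raised most of the region. MBD7 ChIP was higher than MBD7 input in 7424 of the 13089 member windows tested, or 56.7%, and lower in 117, by the quasi-likelihood test of edgeR (Benjamini-Hochberg adjusted p under 0.05 over all windows). Over all windows tested, 18.1% were higher and 6.17% lower. The median log2 fold change was 1.00 in the region and -0.10 over all windows. The other 493 members failed the filter on low counts. Of those, 403 overlapped no gene, and their median total over the 8 libraries was 34 counts.

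These directions hold relative to the scaling. TMM scaling takes most windows as unchanged, whereas library size alone put the median of all windows at -2.15 and that of the region at -1.06, with 501 members higher and 9823 lower. Library size in the window fits was the total over all windows, which includes those over the depth limit. The region stood above the whole genome under both scalings, and fold changes here are to be read against the median of all windows. The other 4 pericentromeres gave a median of 0.95 and 54.3% of windows higher, and the arms -0.25 and 4.06%.

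Along the region, the difference between MBD7 ChIP and MBD7 input formed a dome. Segment medians from 10 to 17 Mb were 0.02, 0.74, 1.50, 1.73, 1.52, 0.86 and 0.11 on the log2 scale. The share of windows higher went from 11.7% in the first segment to 94.5% between 13 and 14 Mb and 14.8% in the last. The mean scaled count per window between 13 and 14 Mb was 13.6 and 11.1 cpm (counts scaled by library size and TMM factor) in MBD7 ChIP, 2.87 and 2.88 in MBD7 input, 8.72 and 7.06 in WT ChIP, and 3.36 and 3.33 in WT input. Between 10 and 11 Mb the same values were 1.36 and 1.35, 1.15 and 1.15, 1.21 and 1.11, and 1.16 and 1.15. The 4 groups were thus well apart in the core and near each other at the edge.

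**Figure D2:**
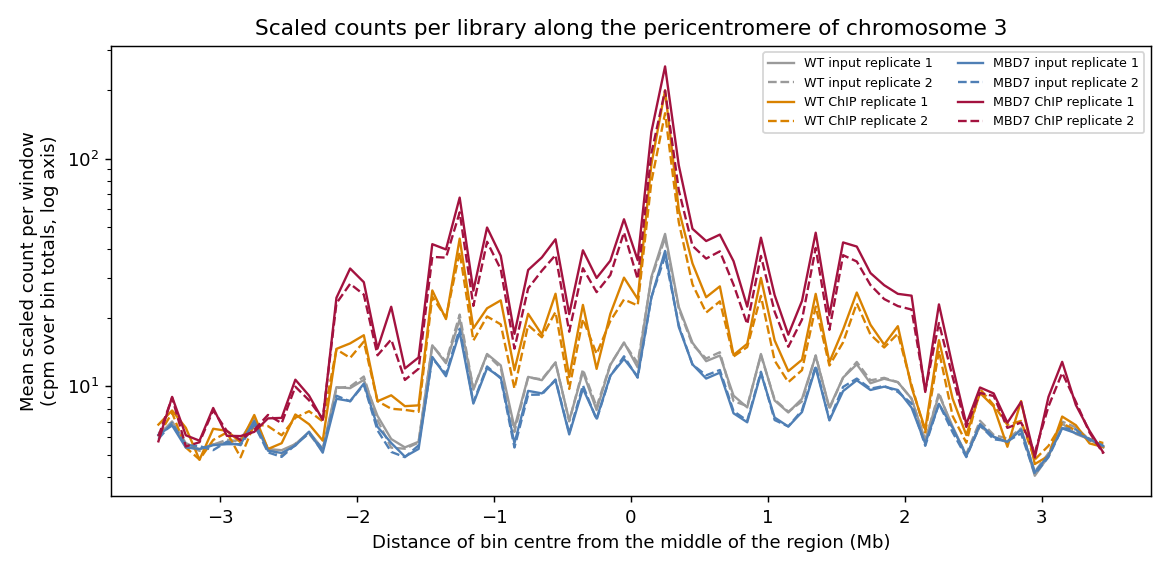
Mean scaled count per window (y axis, cpm over bin totals, log axis) in each of the 70 bins of 100 kb against the distance of the bin centre from the middle of the region (x axis, Mb), 1 line per library. The MBD7 ChIP lines lie above the WT ChIP lines, and these above the inputs, through most of the core, and all lines meet at both ends.

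For deeper counts, windows that do not overlap were summed into bins of 100 kb. MBD7 ChIP was higher than MBD7 input in 66 of 70 bins and lower in 2, where 36.8% and 50.3% of all bins were called. In the other 4 pericentromeres 94.2% of bins were higher, beside 94.3% here. Bins called higher ran without a break for 61 bins, from 10800001 to 16900000, and the 2 lower bins lie at either end of that run. The highest bin was 13700001-13800000, which rests on 67 windows under the limit. Its scaled counts were 2634 and 2499 cpm in MBD7 input and 16990 and 13321 cpm in MBD7 ChIP, a log2 fold change of 2.56 ± 0.18 (SE, n = 2 and 2; adjusted p = 3.0e-09, edgeR). The next bins were those from 13600001 with 2.27, 13800001 with 2.17, 15000001 with 2.05 and 14200001 with 2.04.

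Both lower bins lay near the edges. The bin 10700001-10800000 had 683 and 660 cpm in MBD7 input and 613 and 626 cpm in MBD7 ChIP, a log2 fold change of -0.12 ± 0.05 (adjusted p = 0.034, edgeR). The bin 16900001-17000000 had -0.10 ± 0.04. Without TMM factors 46 bins were higher and 20 lower.

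The window classes differed in level. Pseudogene windows were higher in MBD7 ChIP than in MBD7 input in 4507 of 5236 tested (86.1%), with a median log2 fold change of 1.46. Windows without a gene were higher in 2012 of 3444, with a median of 1.10. Protein-coding windows were higher in 794 and lower in 99 of 4079, with a median of 0.13, and RNA gene windows were higher in 111 of 330, with a median of 0.43. In the other 4 pericentromeres the share of windows higher was 87.1% for pseudogenes and 17.3% for protein-coding genes, and in arms 44.7% and 2.29%.

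Position and class both went with the level. Protein-coding windows had segment medians of -0.07, 0.24, 1.13, 1.16, 0.91, 0.32 and -0.04, so that in the core 111 of 146 (12 to 13 Mb) and 88 of 127 (13 to 14 Mb) were higher, against 79 of 1212 between 10 and 11 Mb. Pseudogene windows had medians of 0.42, 1.01, 1.56, 1.68, 1.59, 1.20 and 0.90. Windows without a gene ran from 0.31 at 10 to 11 Mb to 1.93 at 13 to 14 Mb. Protein-coding windows were the lowest of these 3 classes in every segment.

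**Figure D3:**
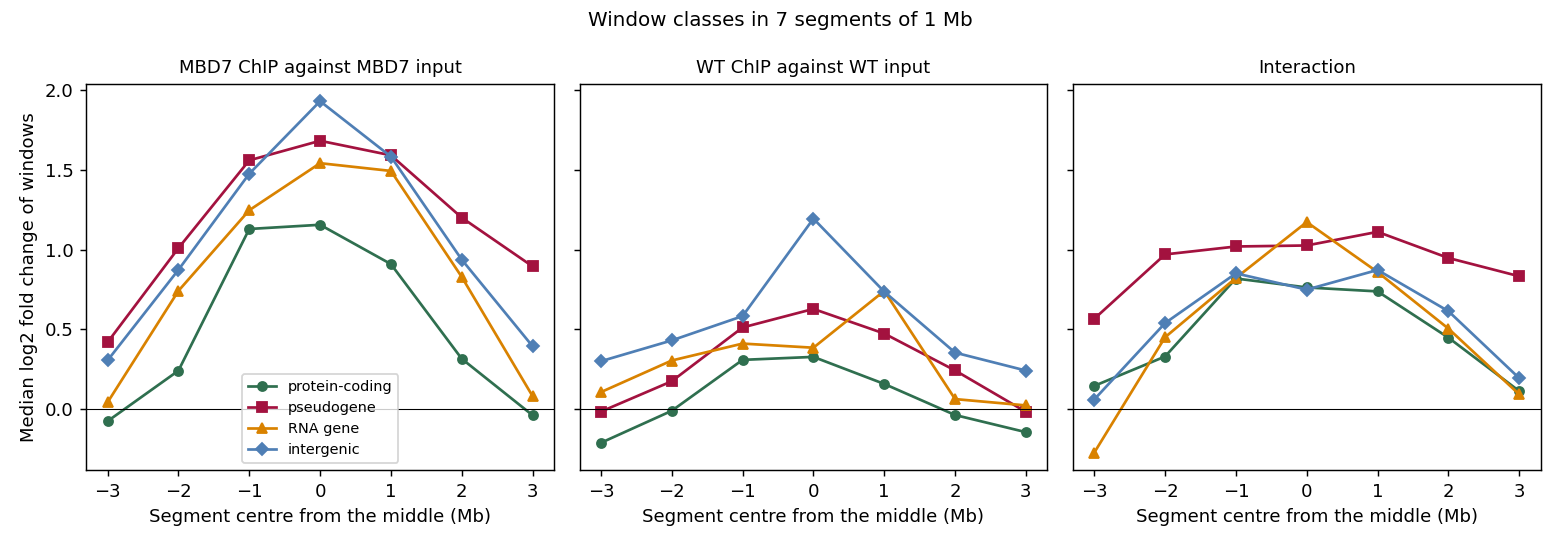
Median log2 fold change of the windows of each class (y axis) in the 7 segments of 1 Mb, by distance of the segment centre from the middle (x axis, Mb), for 3 comparisons. In MBD7 ChIP against MBD7 input the protein-coding line runs from -0.07 at the edge to 1.16 in the core, below the pseudogene line throughout.

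Single windows went well beyond these medians. The highest by the naming rule was 14254501-14255500, which overlaps no gene. Its counts were 94 and 83 in MBD7 input, 621 and 344 in MBD7 ChIP, 169 and 126 in WT input, and 0 and 4 in WT ChIP. MBD7 ChIP stood far above the other groups in both libraries, with a log2 fold change over MBD7 input of 4.41 ± 0.23 (adjusted p = 1.9e-20, edgeR). WT ChIP went the other way from WT input there, with -2.36 (adjusted p = 0.030).

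The 9 other named windows had log2 fold changes of 3.30 to 3.48. Of them, 6 lie in the pseudogenes AT3G31945, AT3G33115, AT3G43302, AT3G31540, AT3G43000 and AT3G42057, 1 in the protein-coding gene AT3G29796, and 2 in no gene. In the AT3G43302 window, 15247001-15248000, counts were 64 and 52 in MBD7 input, 156 and 158 in MBD7 ChIP, 69 and 69 in WT input, and 1 and 5 in WT ChIP. In the AT3G31540 window, 12845001-12846000, they were 77 and 61, 209 and 161, 102 and 75, and 7 and 6 in the same order. In both windows the 2 MBD7 ChIP libraries had the highest counts of the 8. All 10 named windows kept their calls when any 1 library was left out.

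The 5 lowest windows all overlap protein-coding genes. The lowest, 10074501-10075500 in AT3G27270, had 51 and 25 counts in MBD7 input and 3 and 1 in MBD7 ChIP, a log2 fold change of -2.26 ± 0.59 (adjusted p = 0.0026, edgeR). It lost its call without replicate 2 of MBD7 ChIP, and all 5 lost theirs without at least 1 library. The others lie in CRK4, a cysteine-rich receptor-like kinase whose window also overlaps the long non-coding RNA gene AT3G07295, in AT3G28650, in XTH31, a xyloglucan endotransglucosylase/hydrolase of the cell wall, and in AT3G28216. The CRK4 and AT3G28650 windows had 3 counts in both MBD7 ChIP libraries together, for ratios of MBD7 input to MBD7 ChIP of 4.62 (95% counting interval 1.50 to 23.1) and 4.28 (1.38 to 21.4), and these intervals cover counting error only.

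Summed over whole genes inside the region, 1112 of 1827 were higher in MBD7 ChIP than in MBD7 input and 29 lower, where 16.8% and 13.0% of all genes were called. Pseudogenes were higher in 794 of 862 (median log2 1.54), protein-coding genes in 237 of 749 (0.16), and RNA genes in 81 of 216 (0.33), beside a median of -0.15 over all genes. On library size alone 859 genes were higher and 468 lower. Gene counts sum overlapping windows, so neighbours share reads, and how reads of near-identical copies were assigned is not stated in the labels.

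The highest protein-coding gene was AT3G42060, with 29.8 and 32.9 cpm in MBD7 input, 501 and 317 cpm in MBD7 ChIP, 44.0 and 37.3 cpm in WT input, and 20.5 and 57.2 cpm in WT ChIP. Only MBD7 ChIP stood apart among the 4 groups. Its log2 fold change was 3.70 ± 0.23 over MBD7 input and 3.46 ± 0.29 over WT ChIP (adjusted p = 3.2e-10 and 9.8e-08, edgeR). AT3G29796 followed with 3.21, AT3G32380 with 3.07, and MEE38, a gene named for maternal effect embryo arrest, with 3.02.

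MEE38 was high in WT ChIP too. Its levels were 41.3 and 42.8 cpm in MBD7 input, 368 and 314 cpm in MBD7 ChIP, 54.6 and 66.1 cpm in WT input, and 277 and 267 cpm in WT ChIP. Both ChIP groups were far above both inputs, and WT ChIP was 2.17 ± 0.14 above its input (adjusted p = 7.5e-08, edgeR). The direct comparison of MBD7 ChIP with WT ChIP did not pass (0.32 ± 0.14, adjusted p = 0.15, edgeR). AT3G30580, which had 2.62 ± 0.35 over MBD7 input, was also higher in WT ChIP than in WT input (1.86 ± 0.46, adjusted p = 0.013, edgeR), and its MBD7 ChIP did not pass over WT ChIP (0.08 ± 0.43, adjusted p = 0.93, edgeR). Its levels were 4.32 and 5.09 cpm in MBD7 input, 43.9 and 14.0 cpm in MBD7 ChIP, 6.49 and 8.51 cpm in WT input, and 23.4 and 31.4 cpm in WT ChIP. The MBD7 ChIP libraries thus lay on either side of WT ChIP, and the value over MBD7 input was 1.59 without replicate 1 of MBD7 ChIP and 3.23 without replicate 2. Its WT ChIP call was lost without replicate 1 of WT input, without replicate 2 of WT ChIP, and with the inputs counted as 1 library. The other named protein-coding genes, AT3G43682, AT3G32160 and AT3G43150, had 2.44 to 2.63 over MBD7 input.

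The pseudogenes named are those that ranked highest by this same value. AT3G31540 had a log2 fold change of 3.28 in MBD7 ChIP over MBD7 input, AT3G42057 had 3.21, AT3G43000 had 3.18 and AT3G43302 had 3.12, with AT3G33115 next, and over WT ChIP these 5 had 2.21 to 3.29. In AT3G43302, which spans 10 windows, levels were 39.8 and 40.5 cpm in MBD7 input, 365 and 334 cpm in MBD7 ChIP, 44.3 and 47.5 cpm in WT input, and 38.1 and 52.4 cpm in WT ChIP. WT ChIP overlapped its input there, with a log2 fold change of -0.04 ± 0.18. In AT3G33115 WT ChIP had 63.0 and 59.1 cpm over inputs of 46.6 and 44.3 cpm, a difference that did not pass (0.43 ± 0.17, adjusted p = 0.14, edgeR). The named RNA genes were AT3G06055, with 2.70, AT3G06295, with 2.28, and AT3G05795, with 2.16. WT ChIP was higher than WT input in AT3G06055 too (3.19), where WT input had 45 and 10 counts. MBD7 ChIP did not pass over WT ChIP there (0.33 ± 0.45, adjusted p = 0.71, edgeR). AT3G06295 rested on few counts, with 20 and 23 in MBD7 ChIP and 25 and 11 in MBD7 input.

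**Figure D4:**
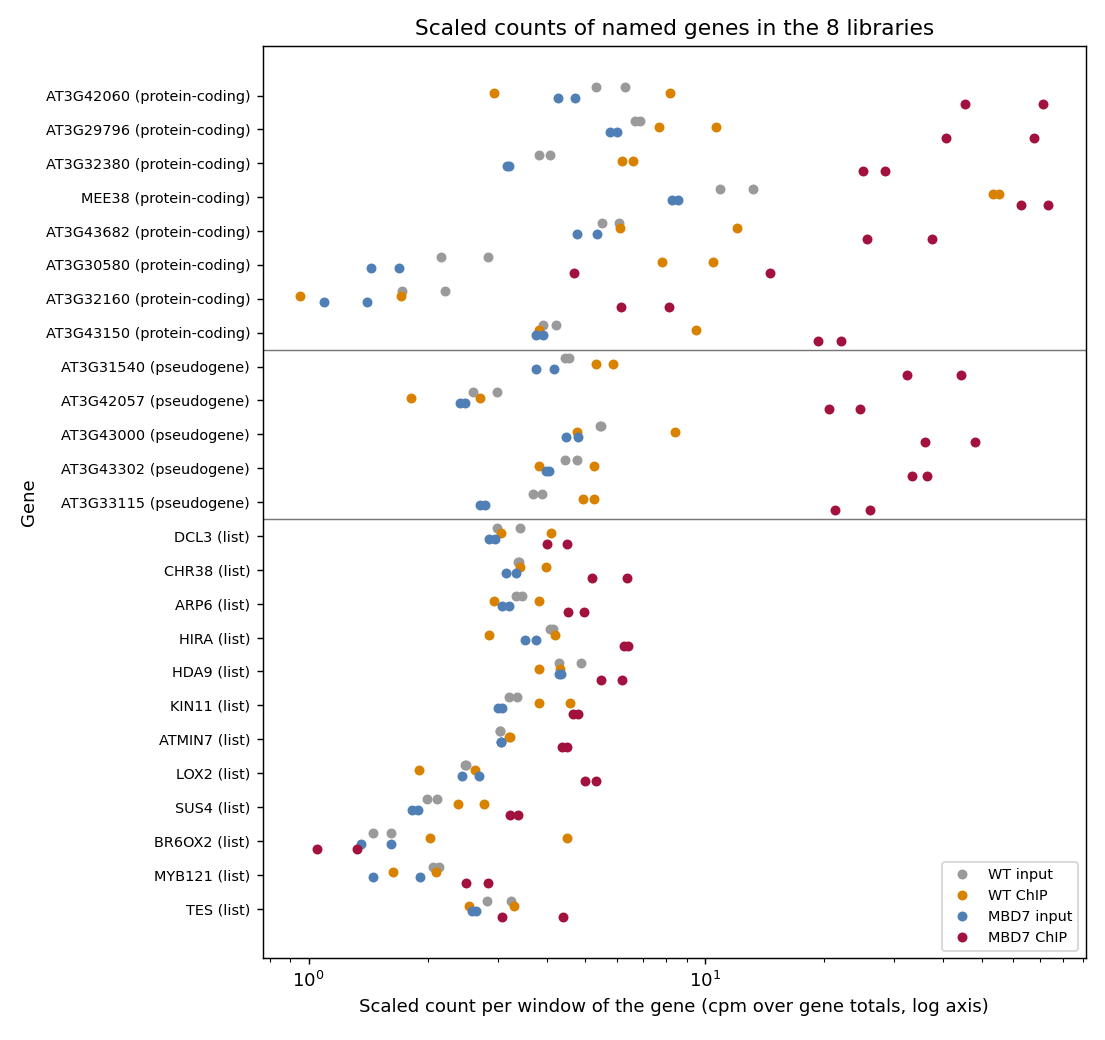
Scaled counts per window of the gene (x axis, cpm over gene totals, log axis) for named and listed genes (y axis), with 1 point per library coloured by group. In AT3G42060 the MBD7 ChIP points stand apart from all other libraries, in MEE38 both ChIP groups stand apart from the inputs, and in BR6OX2 the WT ChIP points lie highest.

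The 8 lowest protein-coding genes had log2 fold changes of -1.26 (AT3G28216) to -0.73 (SYP72, a syntaxin of membrane traffic). AT3G46050 had 14.0 and 14.1 cpm in MBD7 input and 7.32 and 8.19 cpm in MBD7 ChIP, without overlap, for -0.86 ± 0.21 (adjusted p = 0.0049, edgeR). It was the only one of the 8 to pass in every fit with 1 library left out, and the other 7 each lost the call in at least 1 such fit. With the inputs counted as 1 library 0 of the 8 passed, while all 16 named higher genes passed in these fits.

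Known genes of the region were grouped by their textbook roles. Of 40 such genes, 11 were higher in MBD7 ChIP than in MBD7 input, and 0 lower by edgeR, with 0 lower at an unadjusted p under 0.05 and 0 by DESeq2. The 11 make up 27.5% of the listed genes, beside 16.8% of all genes and 31.6% of protein-coding genes in the region, so the share is close to that of the region's protein-coding genes. Of 11 genes of RNA-directed DNA methylation and chromatin, 5 were higher. They were CHR38, also called CLSY1, a remodeller that helps recruit RNA polymerase IV (0.84 ± 0.13), HIRA, a histone H3.3 chaperone (0.80 ± 0.14), ARP6, a subunit of the SWR1 complex (0.59 ± 0.15), DCL3, the Dicer-like enzyme that makes siRNAs (0.55 ± 0.14), and HDA9, a histone deacetylase (0.43 ± 0.13). The other 6, among them CYP71 and HDA3, lay between -0.29 and 0.31. The list median was 0.31, beside -0.15 over all genes.

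Of 9 signalling and defence genes, 3 were higher. LOX2, the lipoxygenase of jasmonate synthesis in leaves, had 24.4 and 26.9 cpm in MBD7 input, 53.1 and 49.99 cpm in MBD7 ChIP, 25.0 and 24.9 cpm in WT input, and 26.4 and 19.1 cpm in WT ChIP. It stood apart in MBD7 ChIP alone, with 1.01 ± 0.13 over MBD7 input (adjusted p = 5.3e-06, edgeR). KIN11, a catalytic subunit of the energy-sensing SnRK1 kinase, had 0.63 ± 0.13, and ATMIN7, a vesicle-traffic factor of immunity, 0.53 ± 0.12. The median of this list was 0.12.

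Of 14 metabolism and transport genes only SUS4, a sucrose synthase, was higher (0.83 ± 0.13), with a list median of 0.21. Of 6 development genes MYB121 (0.64 ± 0.19) and TES, a kinesin needed for pollen cytokinesis (0.50 ± 0.16), were higher, with a list median of 0.14. Fits with library size alone kept 1 of these 11 calls, LOX2, and gave values below 0 for DCL3, HDA9, ATMIN7 and TES. Leaving out 1 library ended the call in at least 1 fit for DCL3, ARP6, HDA9, MYB121 and TES, and with the inputs of each line counted as 1 library CHR38 and LOX2 kept it.

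WT ChIP, which holds no tagged protein, also rose over its input in the region. It was higher than WT input in 1560 member windows and lower in 21, where 5.13% and 0.457% of all windows were called, with a median log2 fold change of 0.29 beside -0.09 over all windows. Library size alone gave 101 higher and 10126 lower, with medians of -1.36 in the region and -1.74 over all windows. Without replicate 1 of WT ChIP 677 windows were called, and with inputs counted as 1 library 1035. The other 4 pericentromeres had a median of 0.31 and 15.1% of windows higher, against 11.9% here.

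In bins WT ChIP was higher than WT input in 55 of 70 and lower in 0, where 25.1% and 20.8% of all bins were called. In the other 4 pericentromeres 75.8% of bins were higher, beside 78.6% here. At an unadjusted p under 0.05 edgeR had 1 bin lower and DESeq2 had 0. Scaled by library size alone, 41 were higher and 16 lower. The highest was again 13700001-13800000, with 3129 and 3008 cpm in WT input and 13323 and 10588 cpm in WT ChIP, a log2 fold change of 1.96 ± 0.18 (adjusted p = 1.5e-06, edgeR). The bins from 13600001, 13800001, 12200001 and 13900001 followed with 1.53, 1.34, 1.05 and 1.03. The rise in WT ChIP was thus sharpest close to the middle, with segment medians of -0.08, 0.18, 0.51, 0.74, 0.50, 0.17 and -0.04.

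By class, WT ChIP was higher in 650 of 3444 windows without a gene (median 0.56), 833 of 5236 pseudogene windows (0.42), 67 of 4079 protein-coding windows (-0.08) and 10 of 330 RNA gene windows (0.20). These shares were 18.9%, 15.9%, 1.64% and 3.03%, beside 5.13% of all windows. In the other 4 pericentromeres the same classes had 25.5%, 20.3%, 2.33% and 4.11%. Windows without a gene were the highest class between 13 and 14 Mb, with a median of 1.19 beside 0.63 for pseudogenes. The highest single window, 11727001-11728000 in the pseudogene AT3G29805, had 132 and 70 counts in WT input, 130 and 25 in WT ChIP, 226 and 64 in MBD7 input, and 142 and 219 in MBD7 ChIP. Its WT ChIP libraries differed widely from each other. Its log2 fold change was 3.42 ± 0.33 (adjusted p = 1.1e-11, edgeR), and 2.00 without replicate 1 of WT ChIP. The 5 named lower windows all had 0 counts in both WT ChIP libraries. They were at least 1.01-fold to 1.22-fold lower, with 3 counts in each WT ChIP library as the floor.

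Among genes inside, WT ChIP was higher than WT input in 428 and lower in 8, where 7.27% and 1.53% of all genes were called. Of these 436 called genes, 355 were pseudogenes and all of those were higher. The count fell to 266 and 274 without replicates 1 and 2 of WT input, and to 132 with the inputs counted as 1 library. Of the 40 listed genes 2.5% were higher, beside 7.27% of all genes. The only one to pass was BR6OX2, the enzyme of the last steps of brassinosteroid synthesis. Its levels were 12.9 and 11.7 cpm in WT input and 35.9 and 16.2 cpm in WT ChIP, a log2 fold change of 1.14 ± 0.29 (adjusted p = 0.016, edgeR), which was 0.40 without replicate 1 of WT ChIP. Leaving out either WT input library or counting the inputs as 1 library ended its call too.

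MBD7 ChIP was then set directly against WT ChIP, which shares its MBD7 ChIP libraries with the comparisons above. It was higher in 2212 member windows and lower in 28, where 5.78% and 0.489% of all windows were called, with a median log2 fold change of 0.59 beside 0.16 over all windows. Segment medians were 0.17, 0.57, 0.79, 0.66, 0.81, 0.64 and 0.21, so the segment of 13 to 14 Mb, the highest against input, was below both of its neighbours. The other 4 pericentromeres had a median of 0.53 and 16.9% of windows higher, the same share as here. Without replicate 2 of WT ChIP 1166 windows were called, in a fit of these 2 groups alone 803 of 8842 tested, and with MBD7 ChIP reads thinned to WT ChIP depth 1067.

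In bins, MBD7 ChIP was higher than WT ChIP in 58 of 70 and lower in 0, where 30.1% and 18.2% of all bins were called. In the other 4 pericentromeres 78.8% of bins were higher, beside 82.9% here. At an unadjusted p under 0.05 edgeR had 1 bin lower and DESeq2 had 0. Scaled by library size alone, 43 were higher and 10 lower. The highest was 15000001-15100000, with 1776 and 1561 cpm in WT ChIP and 4284 and 3767 cpm in MBD7 ChIP, a log2 fold change of 1.27 ± 0.11 (adjusted p = 3.5e-07, edgeR). The bins from 15500001, 14200001, 11700001 and 12400001 followed with 1.22, 1.22, 1.16 and 1.13. The bin 13700001-13800000, the highest over input in both lines, did not pass between them (0.34 ± 0.17, adjusted p = 0.12, edgeR).

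The bin 15500001-15600000 stood out for a flat WT ChIP. Its levels were 884 and 883 cpm in WT input, 991 and 1016 cpm in WT ChIP, 807 and 841 cpm in MBD7 input, and 2502 and 2175 cpm in MBD7 ChIP. WT ChIP over WT input did not pass there (0.18 ± 0.09, adjusted p = 0.12, edgeR), and MBD7 ChIP stood apart from all other groups. The same held further out in the bins from 16500001 and 16600001, where MBD7 ChIP was higher than WT ChIP by 0.73 and 0.76 and WT ChIP was higher than its input by 0.05 and 0.04 on the log2 scale, which did not pass.

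**Figure D5:**
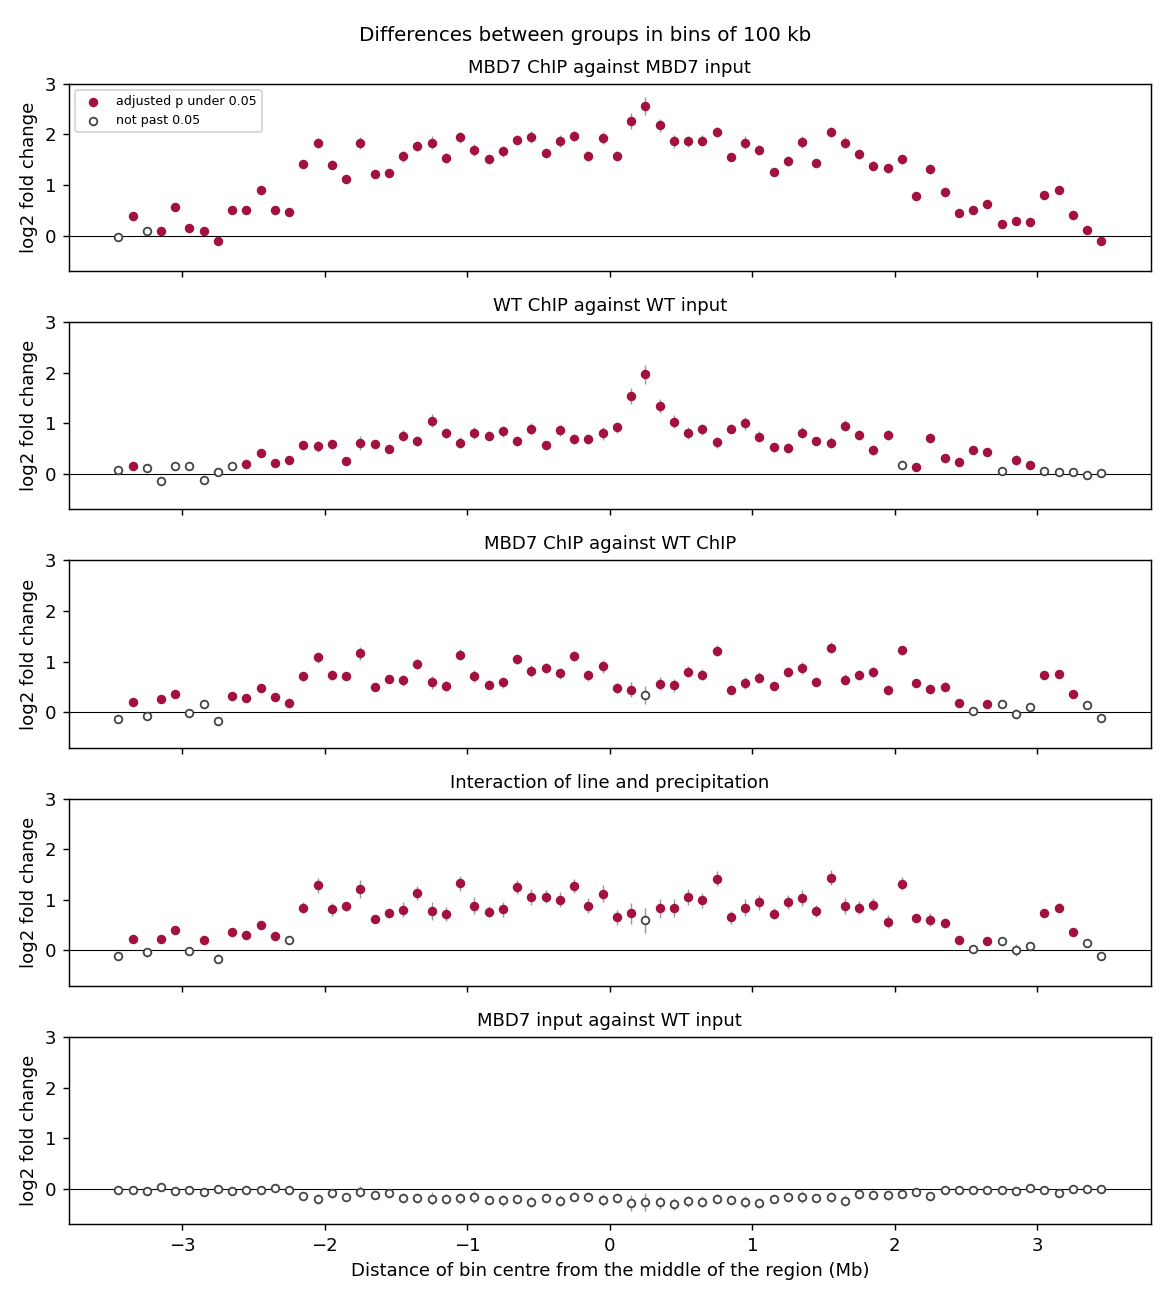
log2 fold change with its SE (y axis) in each of the 70 bins of 100 kb against distance from the middle of the region (x axis, Mb), for 5 comparisons, with filled points where the adjusted p was under 0.05. MBD7 ChIP and WT ChIP both peak over their inputs in the same bin, at 2.56 and 1.96, and that bin is an open point in MBD7 ChIP against WT ChIP.

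Pseudogene windows were higher in MBD7 ChIP than in WT ChIP in 1659 of 5236 tested, windows without a gene in 342 of 3444, protein-coding windows in 194 of 4079 and RNA gene windows in 17 of 330. These shares were 31.7%, 9.93%, 4.76% and 5.15%, beside 5.78% of all windows. In the other 4 pericentromeres the same classes had 34.8%, 10.6%, 4.19% and 5.10%. The 10 windows with the highest fitted values had 0 counts in both WT ChIP libraries. MBD7 ChIP was at least 1.05-fold to 1.62-fold higher there, with 3 counts in each WT ChIP library as the floor. They include 16071501-16072500, which overlaps the microRNA gene MIR849 and the long non-coding RNA gene AT3G06835, with 10 and 22 counts in MBD7 ChIP, 49 and 28 in MBD7 input, and 53 and 46 in WT input. The named lower windows rested on few counts too. In the window 11812501-11813500 of BR6OX2, WT ChIP had 12 and 2 counts and MBD7 ChIP 5 and 7. All 15 named windows of this comparison lost their call without at least 1 library.

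Genes inside were higher in MBD7 ChIP than in WT ChIP in 575 cases and lower in 14, where 8.94% and 2.75% of all genes were called. With library size alone 354 were higher and 107 lower, the fit of these 2 groups alone called 339, and the fit with inputs counted as 1 library 333. Pseudogenes made up 464 of those higher, and AT3G42057 led the named ones with 3.29 ± 0.21 (adjusted p = 5.5e-09, edgeR). Of the listed genes LOX2 (1.15 ± 0.21), HIRA (0.82 ± 0.18) and CHR38 (0.66 ± 0.18) were higher, and BR6OX2 was lower (-1.51 ± 0.33). These are 7.5% and 2.5% of the listed genes, close to the shares over all genes. Among protein-coding genes of the region the shares were 11.7% and 1.34%. The BR6OX2 value was -0.77 without replicate 1 of WT ChIP (adjusted p = 0.28, edgeR), and CHR38 lost its call in 6 of the 8 fits without 1 library. CHR38 and HIRA also lost theirs on library size alone, where HIRA had 0.49 (adjusted p = 0.055, edgeR), and with the inputs counted as 1 library, where HIRA had 0.83 (adjusted p = 0.059, edgeR).

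The interaction asked whether ChIP over input differed between the lines, which corrects the ChIP comparison for the inputs. MBD7 exceeded WT in 2570 member windows and fell short in 24, where 6.55% and 0.57% of all windows were called. The median difference was 0.71 on the log2 scale, beside 0.15 over all windows, and 0.67 in the other 4 pericentromeres. The interaction count was 1623 and 1675 without replicates 1 and 2 of WT input, 1566 without replicate 1 of MBD7 input, 1475 without replicate 2 of WT ChIP, 1407 with MBD7 ChIP thinned, and 1058 with the inputs counted as 1 library.

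In bins 58 of 70 were higher in the interaction and 0 lower, where 30.0% and 17.2% of all bins were called. At an unadjusted p under 0.05 edgeR and DESeq2 both had 0 bins lower. With library size alone 46 were higher and 9 lower. The highest were those from 15000001 (1.43 ± 0.15), 14200001 (1.42 ± 0.14), 12400001 (1.32 ± 0.15), 15500001 (1.32 ± 0.12) and 11400001 (1.28 ± 0.14). The bin from 14200001 had 692 and 655 cpm in WT input, 1044 and 1028 cpm in WT ChIP, 579 and 592 cpm in MBD7 input, and 2694 and 2125 cpm in MBD7 ChIP. WT ChIP thus rose over input there as well, but MBD7 ChIP rose further in both libraries.

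The interaction was highest in pseudogenes, where 1891 of 5236 windows passed upward, with a median of 1.01. That was 36.1%, beside 6.55% of all windows. In the other 4 pericentromeres 39.6% of pseudogene windows passed upward, with a median of 1.01, and in arms 23.6%, with 0.64. Windows of the region without a gene had a median of 0.64, its protein-coding windows 0.30 and its RNA gene windows 0.28. Within pseudogenes the segment medians were 0.57, 0.97, 1.02, 1.03, 1.11, 0.95 and 0.83, a flatter course than that over MBD7 input. Genes inside were higher in 601 cases and lower in 10, where 8.86% and 2.02% of all genes were called. With library size alone 366 were higher and 76 lower.

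The gene count of the interaction was 378 without either replicate of WT input, 363 and 375 without replicates 1 and 2 of MBD7 input, and 107 with the inputs counted as 1 library. Of the listed genes, LOX2 (1.12 ± 0.25), HIRA (0.99 ± 0.22) and CHR38 (0.72 ± 0.22) were higher, and BR6OX2 lower (-1.45 ± 0.38, adjusted p = 0.017, edgeR). These are 7.5% and 2.5% of the listed genes, close to the 8.86% and 2.02% of all genes. Among protein-coding genes of the region the shares were 10.4% and 0.935%. LOX2 kept its call when any 1 library was left out. HIRA lost it without replicate 1 of WT input or replicate 2 of MBD7 input, CHR38 in 6 of the 8 such fits, and BR6OX2 in 5, with -0.71 without replicate 1 of WT ChIP. On library size alone HIRA and CHR38 lost theirs, and with the inputs counted as 1 library 0 of these 4 calls held.

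The inputs were close, with a small dip in the core of the MBD7 line. MBD7 input was higher than WT input in 1 member window and lower in 0 by edgeR, where 0.0103% and 0.00901% of all windows were called. At an unadjusted p under 0.05 edgeR had 221 windows higher and 1082 lower, and DESeq2 called 1 higher and 4 lower after adjustment. In bins edgeR called 0 of 70, where 0.251% and 0.0% of all bins were called, with 0 higher and 19 lower at an unadjusted p under 0.05, and DESeq2 called 0. Of genes inside edgeR called 0, where 0.0053% and 0.0% of all genes were called, with 15 higher and 195 lower at an unadjusted p under 0.05, and DESeq2 called 1 higher and 1 lower. The window, 11225501-11226500, overlaps no gene and had WT input counts of 41 and 23 against MBD7 input counts of 75 and 64 (1.19 ± 0.21, adjusted p = 0.0060, edgeR), and lost its call in 3 of the 8 fits without 1 library. It was higher in WT ChIP than in WT input too, by 1.91 on the log2 scale.

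The dip showed in the medians, and the other pericentromeres shared it. Over windows the median was -0.095 in the region, -0.103 in the other 4 pericentromeres and 0.037 in arms. Over bins it was -0.143, -0.116 and 0.003 in the same order. Segment medians of MBD7 input against WT input were 0.02, -0.04, -0.17, -0.22, -0.19, -0.07 and 0.03, and 65 of 70 bins had values below 0, with the lowest, -0.30, at 13900001-14000000. A fit of the inputs alone, whose spread is not shared with ChIP libraries, called 42 of 70 bins, all lower, 118 windows and 175 genes. Its spread is only that between the inputs of a line, which may not be separate samples. These calls may thus rest on technical repeats. The part of this dip in the comparisons of the lines was not tested, and the interaction takes each ChIP group against its own input.

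Of the 417 windows left out by the depth limit, 406, or 97.4%, were higher in MBD7 ChIP than in MBD7 input. The share was 18.1% of all windows and 94.5% of the members between 13 and 14 Mb. WT ChIP was higher than WT input in 388 of them, or 93.0%, where 5.13% of all windows and 33.0% of the members between 13 and 14 Mb were. Their median log2 fold change in WT ChIP over WT input was 1.91, beside 0.74 in that segment. MBD7 ChIP was higher than WT ChIP in 141 and lower in 13, or 33.8% and 3.12%, where 5.78% and 0.489% of all windows were called. Of the members between 13 and 14 Mb 27.5% were higher and 0.114% lower.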

How the data were processed

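The table holds raw read counts per window in 8 libraries. Per the submitters' processing notes, the authors used Bowtie2, SAMtools and featureCounts with the TAIR10 build. Versions, filters and the treatment of duplicate and multi-mapped reads are not stated in the labels, and the last of these bears on repeats. The counts, as deposited, were fitted once for all 8 libraries per level (windows, bins of 100 kb, genes) with edgeR 4.0.16 (R 4.3.3): filterByExpr, TMM factors, the two-sided quasi-likelihood test, and Benjamini-Hochberg adjustment over all features of chromosomes 1 to 5, threshold 0.05. SEs are the log2 fold change over the root of F. Bins used every second window, since neighbours share 500 bp, and genes all windows they overlap. Names and classes came from RefSeq's table of assembly TAIR10.1. Scripts were tested on simulated data.

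Windows were named if they passed with a mean of at least 10 counts, both libraries of one group above both of the other, and no named window within 2000 bp: the 10 highest and 5 lowest (5 and 5 for WT ChIP, 3 and 3 for inputs). Of bins the 5 highest and 3 lowest were named, and over MBD7 input the 8 highest and 8 lowest protein-coding genes, 5 and 3 pseudogenes and 3 RNA genes. Members, lists and rules were chosen with earlier results of these data known. Counts against groups at 0 use a floor of 3 counts in each library of that group. Alternatives were other scalings, DESeq2 1.42.0, filters, depth limits, thinning, each library left out, a replicate block, and, added after the data were seen, inputs summed per line.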

Additional observations from a re-analysis of the deposited data

Results flagged for a closer look

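The ratio of ChIP to input differed between the MBD7 line and WT in many places, by the interaction test of edgeR. It was higher in the MBD7 line in 2570 windows and lower in 24, higher in 58 bins and lower in 0, and higher in 601 genes and lower in 10. Over all features 6.55% of windows, 30.0% of bins and 8.86% of genes were higher. In the other 4 pericentromeres 20.0% of windows and 80.8% of bins were higher, beside 19.6% and 82.9% here. With the inputs counted as 1 library the window and gene counts fell, as given above. The 0 lower bins were also 0 at an unadjusted p under 0.05 and by DESeq2.

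Among windows, the 10 named higher ones had 0 counts in both WT ChIP libraries. The named lower ones had log2 differences of -2.74 (16838001), -2.65 (10139501), -2.50 (11813001, in BR6OX2), -2.27 (10707001) and -2.22 (16894501). All 15 lost their call when at least 1 library was left out.

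The 5 bins with the highest differences were those from 15000001 with 1.43, 14200001 with 1.42, 12400001 with 1.32, 15500001 with 1.32 and 11400001 with 1.28.

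Of the named protein-coding genes, AT3G42060 had 3.84, AT3G32160 3.00, AT3G29796 2.79, AT3G32380 2.37, AT3G43682 2.04, AT3G43150 1.65 and MEE38 0.845. MEE38 lost its call without replicate 2 of WT input or either MBD7 input, and on library size alone (adjusted p = 0.051, edgeR). With the inputs counted as 1 library AT3G43150 and MEE38 lost theirs (adjusted p = 0.104 and 0.364, edgeR). The pseudogenes AT3G42057, AT3G43302, AT3G31540, AT3G43000 and AT3G33115 had 3.48, 3.16, 2.96, 2.87 and 2.67, and the RNA gene AT3G05795 had 1.85. The lower ones were AT3G44380 with -1.58, AT3G44716 with -1.19 and AT3G28705 with -1.01, and each lost its call without at least 1 library and with the inputs counted as 1 library. Of the listed genes, LOX2 had 1.12, HIRA 0.989, CHR38 0.72 and BR6OX2 -1.45. None of these 4 passed with the inputs counted as 1 library, and HIRA and CHR38 did not pass on library size alone.

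Outside the members, 141 of the 417 windows above the depth limit, or 33.8%, were higher in MBD7 ChIP than in WT ChIP. The share was 5.78% of all windows and 27.5% of the members between 13 and 14 Mb.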

How the results depend on the processing

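The thin WT ChIP libraries limit every comparison that uses them, and scaling limits the direction over input. Values below are percentages of tested members called unless stated, and causes were not tested. Each percentage pools higher and lower calls. On library size alone most windows called over input were lower in both lines, as given above, where the main fits called mostly higher.

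In windows, library size alone gave 10.7 for the contrast of both ChIP groups, 7.32 for the interaction, 78.1 for WT ChIP over input and 0.199 for the inputs. The DESeq2 Wald test, which set fewer than all windows an adjusted p, gave 29.6, 38.4, 25.7 and 0.112 in that order. In counts it called 1754 windows higher and 24 lower between the ChIP groups, where edgeR called 2212 and 28. In the interaction it called 2127 and 13, where edgeR called 2570 and 24. For WT ChIP over input it called 1855 and 1, where edgeR called 1560 and 21. Thinning MBD7 ChIP gave 8.73 for the ChIP groups, 11.5 for the interaction and 0.131 for the inputs. Fits of the compared groups alone, which the interaction cannot have, gave 9.08 for the ChIP groups and 0.900 for the inputs. Summed inputs gave 8.03 in the interaction and 7.86 for WT ChIP over input, and a depth limit of 5 gave 7.66 for the latter. For the inputs the arm total, every second window and the replicate block each gave 0.0153, no filter 0.0147 and no depth limit 0.074.

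In bins, the inputs alone gave 60.0, with a spread that may be technical, as given above. In genes they gave 9.58, and 0.237 with DESeq2. MBD7 ChIP against WT ChIP in genes gave 18.8 in a fit of these groups and 18.2 with summed inputs, which also gave 5.86 in the interaction and 7.23 for WT ChIP over input. The log2 difference in the region's share of all counts was 0.81 for MBD7 ChIP against its input, 0.29 against WT ChIP, 0.43 for WT ChIP against its input and -0.096 for the inputs. Relative to arm counts these were 1.60, 0.60, 0.84 and -0.16. As a share of all counts with a depth limit of 5 the last 3 were 0.39, 0.34 and -0.091.

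Leaving out 1 library gave ranges in the order MBD7 ChIP against its input, against WT ChIP, interaction, WT ChIP against its input, and inputs. In windows they were 47.1 to 57.6, 8.77 to 20.5, 11.1 to 24.4, 5.09 to 12.7 and 0 to 0.159. In bins they were 92.9 to 97.1, 78.6 to 85.7, 75.7 to 84.3, 70.0 to 81.4 and 0 to 4.29. In genes they were 55.1 to 65.6, 23.3 to 35.3, 19.9 to 37.6, 14.6 to 25.0 and 0 to 0.0547. The log2 differences in share were 0.77 to 0.86, 0.24 to 0.33, 0.39 to 0.47 and -0.098 to -0.094 without the interaction.

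With library size alone the values over MBD7 input were lower throughout the listed genes, and many changed sign. Examples, which are not a full list, were DCL3 -0.0357, HDA9 -0.15, MPK3 -0.50, MYB30 -0.41, ATMIN7 -0.0474, ACD1 -0.46, NIT3 -0.42, FAR4 -0.41, MYB0 -0.58 and TES -0.0821.

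Replicate numbers are shared only as numbers. Deviations of same-numbered libraries correlated at -0.007 to 0.033 in windows and -0.031 to 0.390 in bins. With the replicate block 57.2, 17.2, 19.7 and 11.9 percent of windows were called in the first 4 comparisons, and 97.1, 84.3, 84.3 and 80.0 percent of bins.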
